A study of Mus musculus with 12 samples.

Results

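The *Cfap* genes (cilia and flagella associated protein) encode parts of motile cilia, and their mRNAs were followed here in primary cultures from newborn *Myt1l* (+/−) and (+/+) mice. Members were all genes of the deposited count table whose symbol is Cfap plus a number, with or without 1 letter, and 31 of 55397 genes matched. All 31 had 0.5 CPM (counts per 1000000 counts) or more in at least 1 animal, and the lowest value of any member in any animal was 1.47 CPM, so every member was tested in both genotypes. Only 1 of the 31 was not higher in (+/−) cultures, at a median log2 fold change of 0.78 (range −0.03 to 1.31), but none passed an adjusted p of 0.1 with the quasi-likelihood test of edgeR.

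A motile cilium is built on an axoneme, a ring of doublet microtubules around a central pair. Dynein arms between the doublets power the beat, and radial spokes and the central pair regulate it. *Cfap* proteins sit inside the doublet walls, in projections of the central pair, and in complexes that anchor and tune the dyneins, while a few serve the base of the cilium or non-motile primary cilia. In the brain, motile cilia are known from ependymal cells, which line the ventricles and carry them in tufts, and from choroid plexus epithelium. Neurons and astrocytes carry a single primary cilium. FOXJ1 and RFX transcription factors are the known activators of the motile cilia gene programme.

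The (+/−) group held 3 animals (505, 506 and 508) and the (+/+) group held 3 animals (510, 511 and 513), with 2 RNA libraries per animal whose counts were summed. The mutant allele is a germline frameshift deletion of 7 bp made by CRISPR in exon 6 of *Myt1l*, a neuronal transcription factor, and it leaves a truncated protein that lacks nuclear localisation. Labels give male newborn (P0) mice of strain C57BL/6J and cortex as the tissue, whereas the methods name C57BL/6N mice for breeding the founders and the hippocampus or the cortex as sources of neuronal cultures. The RNA was taken at day in vitro 11 (DIV11). By the labels, the cultures of both genotypes received B27 and serum media and the antimitotic Ara-C after plating. The sources name no sort of these cells, so neurons, glia and any other cells of the dissected tissue were measured together, and fewer cells of a type cannot be told apart from less RNA per cell. Nothing in the sources says whether animals of a genotype shared a litter or a culture day.

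Totals ran from 40642699 to 43745258 counts in (+/−) animals and from 43129302 to 52833161 counts in (+/+) animals. *Myt1l* itself had 89.0, 146 and 165 CPM in (+/−) cultures, against 119, 147 and 109 CPM in (+/+) cultures. The groups overlapped, and because the mutant mRNA is not degraded by the paper's account, this level cannot check the genotype labels. Pan-neuronal markers were present throughout, at a summed level of 2380 to 3950 CPM in (+/−) cultures and 4300 to 4730 CPM in (+/+) cultures. The (+/+) animal 511, labelled male, had 18805 counts of *Xist*, the RNA of the inactive X chromosome, against 5 to 10 in the other animals.

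*Cfap* mRNA as a whole took 0.130%, 0.0999% and 0.113% of all counts in (+/−) animals, against 0.0695%, 0.0611% and 0.0886% in (+/+) animals. Every (+/−) animal thus lay above every (+/+) animal, and the nearest pair was the (+/−) animal 506 and the (+/+) animal 513. Values per animal are given throughout in the order 505, 506, 508 for (+/−) and 510, 511, 513 for (+/+).

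Levels between genes were compared as CPM per kilobase of annotated exon. The median member had 5.71 CPM per kb in (+/−) cultures and 4.40 CPM per kb in (+/+) cultures. *Cfap126* (Flattop, a doublet protein known for basal body positioning) was the most abundant in (+/−) cultures, at 38.4 CPM per kb, against 23.4 in (+/+) cultures. *Cfap36*, a binding partner of the GTPase ARL3, had 32.0 CPM per kb in (+/−) and 25.1 in (+/+) cultures, and it ranked first in (+/+) cultures. The dynein assembly factor *Cfap298* followed with 27.8 CPM per kb in (+/−) and 21.2 in (+/+) cultures, and the doublet protein gene *Cfap52* with 26.1 in (+/−) and 13.5 in (+/+) cultures. At the low end, *Cfap58*, which is needed for sperm flagella in mice, had 1.04 CPM per kb in (+/−) and 0.493 in (+/+) cultures.

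**Figure D1:**
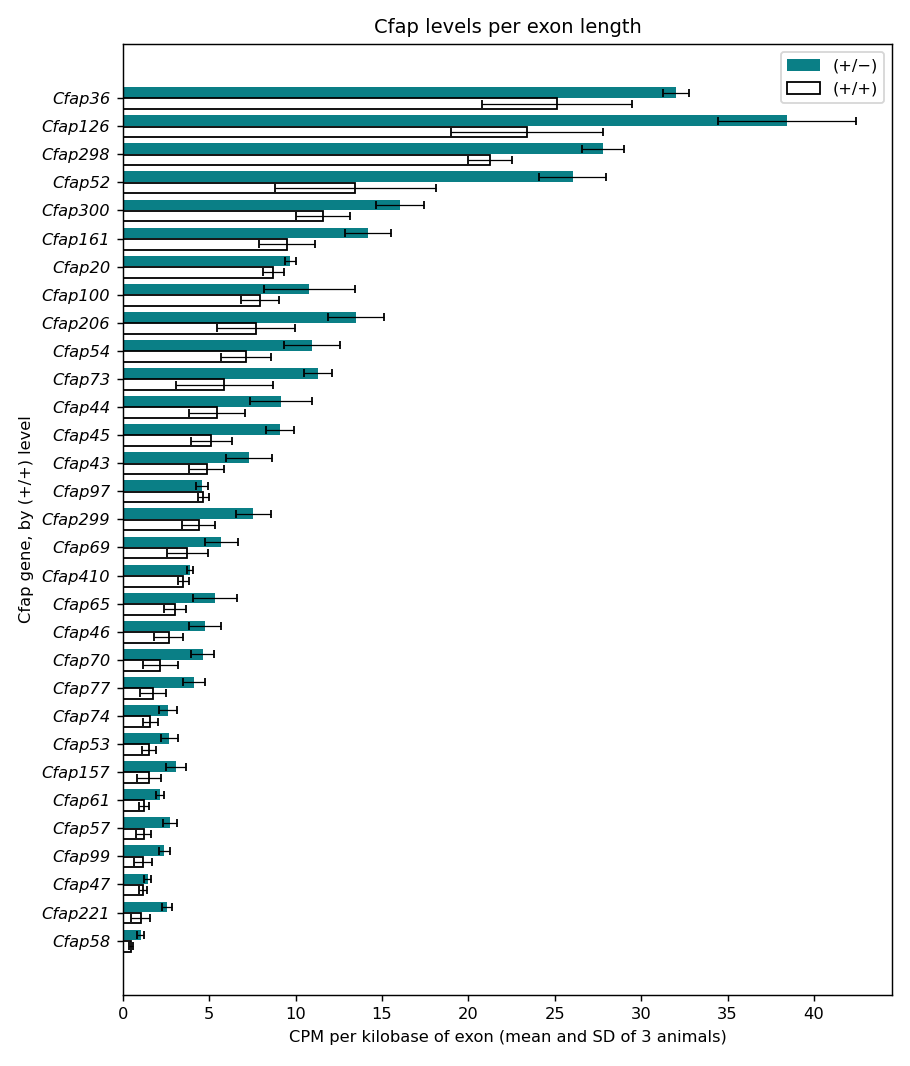
Level of each of the 31 Cfap genes per exon length (x axis, CPM per kilobase of exon, linear), ordered by the (+/+) level, with filled bars for (+/−) above open bars for (+/+) and error bars for the SD of 3 animals each. Cfap126 had 38.4 CPM per kb in (+/−) and 23.4 in (+/+) cultures, while Cfap58 at the bottom had 1.04 in (+/−) and 0.493 in (+/+).

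The comparison of genotypes asked how far each *Cfap* gene differed between (+/−) and (+/+) cultures. At an unadjusted p under 0.05, 27 of 31 members were higher in (+/−) cultures, where 13.2% of all 18264 genes tested were, and none was lower, where 9.11% of genes were. In 25 of 31 members every (+/−) animal lay above every (+/+) animal, against 15.5% of all genes, and in none did every (+/−) animal lie below every (+/+) animal, against 13.5% of all genes. The median log2 fold change of all genes tested was 0.003. After Benjamini-Hochberg adjustment over all genes, the members' edgeR adjusted p ran from 0.166 to 0.857, and the test called 0% of all genes. An exact two-sided permutation test of 3 animals against 3 cannot go below p = 0.1, a value that these 25 members reached.

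The largest differences lay among the less abundant members. *Cfap221* (ENSMUSG00000036962.12; mm10, chromosome 1, 119923341 to 119997234, minus strand), which encodes part of a central pair projection, had 7.82, 6.52 and 8.19 CPM in (+/−) cultures, against 2.21, 2.02 and 4.89 CPM in (+/+) cultures, a log2 fold change of 1.31 ± 0.33 (SE, n = 3 each; edgeR adjusted p = 0.166). Its groups did not overlap, and the (+/+) animal 513 stood well above the other two (+/+) animals. The 9 members under 10 CPM on average had log2 fold changes of 0.78 to 1.31 (median 1.05). The 8 members of 10 to 30 CPM spanned −0.03 to 1.09 (median 0.59), and the 14 members of 30 CPM or more spanned 0.15 to 0.95 (median 0.61).

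**Figure D2:**
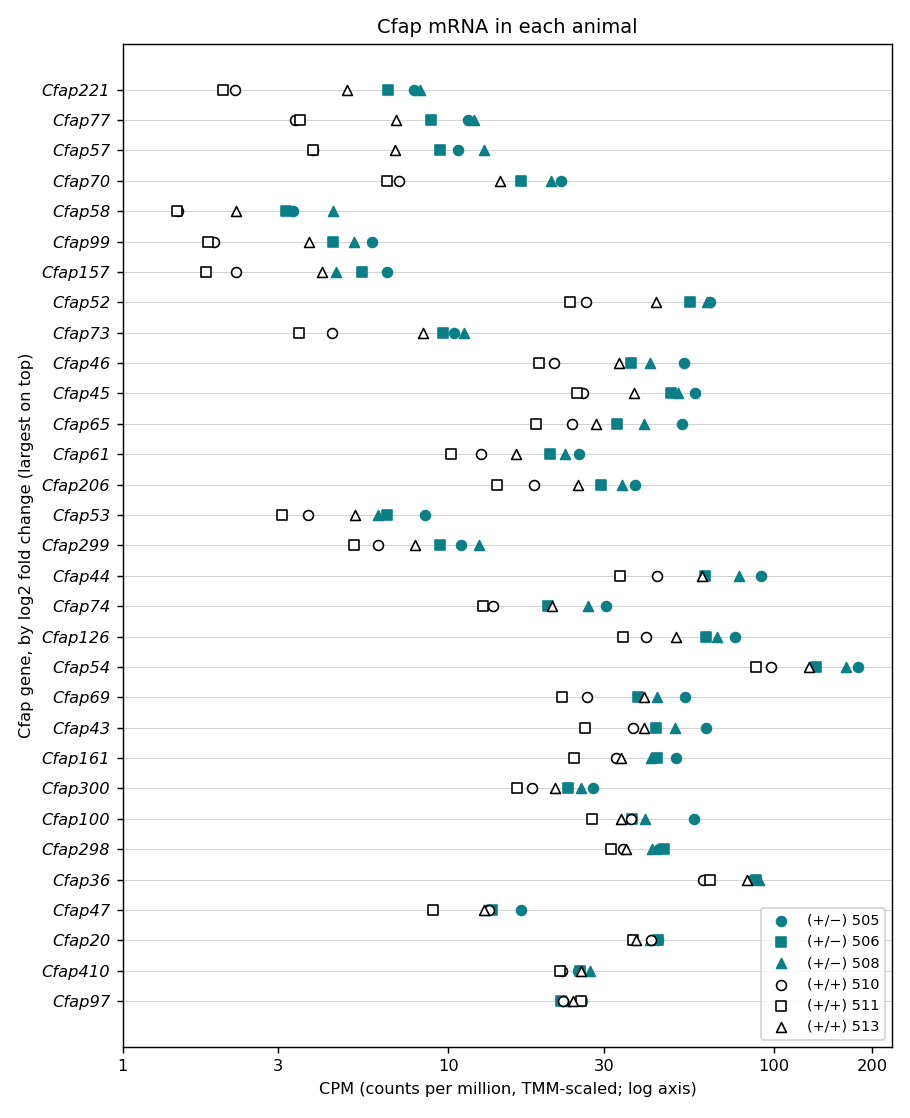
CPM of each Cfap gene in each animal (x axis, TMM-scaled CPM, log axis), ordered by log2 fold change, with filled teal symbols for the (+/−) animals and open symbols for the (+/+) animals. In 25 of 31 genes all filled symbols lie right of all open ones, the (+/+) animal 513 (open triangle) lies closest to them in most rows, and Cfap97 at the bottom shows the groups mixed.

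Promoter windows show the sequence context of the members with the largest and the smallest differences. RefSeq windows on GRCm38.p6, from 250 bases before to 50 bases after a transcription start, were on hand for 24 members. *Cfap157*, *Cfap299*, *Cfap53*, *Cfap54*, *Cfap65*, *Cfap73* and *Cfap97* had no entry. The letters searched on both strands were GTTGCC, the half-site of the X-box bound by RFX factors, its longer form GTTGCCATG, which contains the half-site, the forkhead cores TGTTTAC and TGTTTGT, and AAAGTT, the motif of MYT1L. Windows of the 2 members with the largest fold change that had an entry (*Cfap221* and *Cfap77*) and of the member with an entry and the smallest (*Cfap410*) are printed 5′ to 3′ on the gene's strand, with any searched motif in capitals, read on either strand. *Cfap221* (chr1:119997183-119997482, minus strand) holds 1 match, AAAGTT on the opposite strand 203 bases before the start, whereas *Cfap77* (chr2:29055017-29055316, minus strand) and *Cfap410* (chr10:77978400-77978699, plus strand) hold none.
Cfap221: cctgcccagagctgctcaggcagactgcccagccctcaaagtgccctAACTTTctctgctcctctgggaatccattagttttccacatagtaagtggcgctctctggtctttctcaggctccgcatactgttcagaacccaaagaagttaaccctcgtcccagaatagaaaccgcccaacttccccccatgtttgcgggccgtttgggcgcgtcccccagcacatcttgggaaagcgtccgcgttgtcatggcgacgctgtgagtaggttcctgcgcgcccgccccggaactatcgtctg
Cfap77: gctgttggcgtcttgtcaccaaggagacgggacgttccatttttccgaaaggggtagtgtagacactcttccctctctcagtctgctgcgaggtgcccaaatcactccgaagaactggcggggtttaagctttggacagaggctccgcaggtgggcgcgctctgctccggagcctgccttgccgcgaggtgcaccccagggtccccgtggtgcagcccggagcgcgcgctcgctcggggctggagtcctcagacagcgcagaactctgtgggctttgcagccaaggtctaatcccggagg
Cfap410: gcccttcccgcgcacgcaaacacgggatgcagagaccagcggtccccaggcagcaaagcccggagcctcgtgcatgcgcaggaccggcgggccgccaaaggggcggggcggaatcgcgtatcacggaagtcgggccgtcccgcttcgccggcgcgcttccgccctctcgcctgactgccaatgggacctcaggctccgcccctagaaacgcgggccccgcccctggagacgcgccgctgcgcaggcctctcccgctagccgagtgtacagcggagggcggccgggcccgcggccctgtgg

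*Cfap161* (chr7:83794790-83795089, minus strand) and *Cfap74* (chr4:155408940-155409239, plus strand) were the 2 members with the longer X-box form, and their windows were chosen for printing because of these matches. In *Cfap161* it lies on the opposite strand from 42 bases before the start, beside 2 further half-sites. In *Cfap74* it begins 13 bases after the transcription start, near the end of this window, which is 1 of 2 overlapping windows of the gene. Relative to the start of the other window's transcript, it begins 37 bases before. The printed window also holds a half-site on the opposite strand, 116 bases before its start.
Cfap161: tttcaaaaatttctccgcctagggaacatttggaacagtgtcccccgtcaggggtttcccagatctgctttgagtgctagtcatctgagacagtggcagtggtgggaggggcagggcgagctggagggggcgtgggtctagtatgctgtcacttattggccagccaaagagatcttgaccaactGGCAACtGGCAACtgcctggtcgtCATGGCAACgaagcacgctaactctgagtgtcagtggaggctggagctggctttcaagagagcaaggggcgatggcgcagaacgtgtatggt
Cfap74: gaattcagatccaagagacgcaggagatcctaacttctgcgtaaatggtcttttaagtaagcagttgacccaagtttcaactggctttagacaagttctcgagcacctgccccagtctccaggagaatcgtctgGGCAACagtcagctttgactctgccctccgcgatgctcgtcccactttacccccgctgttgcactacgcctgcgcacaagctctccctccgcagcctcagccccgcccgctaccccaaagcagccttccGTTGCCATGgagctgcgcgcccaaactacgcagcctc

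The X-box half-site was present in 9 of 24 members (37.5%), in 44.6% of the windows of 56 other genes of the motile axoneme and in 14.1% of 27025 genes with a window. Its 9 carriers were *Cfap20*, *Cfap44*, *Cfap46*, *Cfap58*, *Cfap74*, *Cfap100*, *Cfap161*, *Cfap298* and *Cfap300*, so they include members with small and with large differences. The longer form was found in 2 of 24 members (8.33%), in 0 of the 56 other axoneme genes and in 0.877% of all genes. TGTTTAC occurred in *Cfap20* and *Cfap43*, 8.33% of members against 4.05% of all genes, and TGTTTGT in *Cfap126* alone, 4.17% against 7.60% of all genes. AAAGTT was found in *Cfap221* and *Cfap70*, 8.33% of members, against 26.8% of the other axoneme genes and 15.9% of all genes, and 11 members held none of the motifs. These matches describe letters in a window and were set beside no binding data.

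Among the 7 genes of the doublet microtubule wall, 6 were higher at an unadjusted p under 0.05 and had non-overlapping groups, with log2 fold changes of 0.15 to 1.23 (median 0.81). *Cfap77*, whose protein sits at the outer junction of the doublet, had 11.5, 8.86 and 12 CPM in (+/−) cultures, against 3.38, 3.49 and 6.91 CPM in (+/+) cultures (log2 fold change 1.23 ± 0.29, SE, n = 3 each; edgeR adjusted p = 0.166). *Cfap52*, at the inner junction, had 63.6, 55.3 and 62.5 CPM in (+/−) cultures, against 26.5, 23.7 and 43.5 CPM in (+/+) cultures (0.95 ± 0.22). In both genes the groups were apart, with 513 the highest (+/+) animal. *Cfap126* had 75.7, 61.7 and 67.0 CPM in (+/−) and 40.4, 34.4 and 49.9 CPM in (+/+) cultures (0.71 ± 0.15). *Cfap45*, a nucleotide-binding protein inside the doublet, had the smallest p of all members, 0.000994 with edgeR, at 57.1, 48.2 and 50.8 CPM in (+/−) and 25.8, 24.8 and 37.0 CPM in (+/+) cultures (0.83 ± 0.16). *Cfap53*, known from left-right asymmetry, stood at 0.81 and *Cfap161* at 0.58, also without overlap.

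*Cfap20*, an inner junction protein, was the exception of this group. It had 43.9, 44.2 and 41.5 CPM in (+/−) cultures, against 41.9, 36.8 and 37.7 CPM in (+/+) cultures (0.15 ± 0.09; edgeR adjusted p = 0.296). The (+/+) animal 510 lay above the (+/−) animal 508, so the groups overlapped.

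The 9 genes of the central apparatus had log2 fold changes of 0.30 to 1.31 (median 0.82), 8 of them at an unadjusted p under 0.05 and 6 without overlap. The central pair projection that holds *Cfap221* also holds the proteins of *Cfap46*, *Cfap54* and *Cfap74*. *Cfap54* had the highest CPM of all members, 182, 135 and 166 in (+/−) cultures, against 97.6, 88.0 and 128 in (+/+) cultures (0.62 ± 0.17; edgeR adjusted p = 0.166). *Cfap46* had 53.1, 36.4 and 41.7 CPM in (+/−) and 21.1, 19.0 and 33.5 CPM in (+/+) cultures (0.83 ± 0.23). *Cfap74* was 0.72 higher on the log2 scale, but the (+/+) animal 513 (20.8 CPM) lay just above the (+/−) animal 506 (20.2 CPM). The 4 genes of this projection thus spanned log2 fold changes of 0.62 to 1.31, and differences among them were not tested.

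*Cfap69*, needed for sperm flagella and also known from olfactory cilia, had 53.2, 38.3 and 43.8 CPM in (+/−) cultures, against 26.6, 22.3 and 40.0 CPM in (+/+) cultures (0.61 ± 0.22; edgeR adjusted p = 0.189). Again 513 crossed 506. *Cfap70* (1.09), *Cfap99* (1.05), known as a central pair protein from Chlamydomonas, and *Cfap65* (0.82), needed for sperm flagella, had no overlap. *Cfap47* had the smallest difference of the group, 0.30 ± 0.18, with overlapping animals and an edgeR adjusted p of 0.313.

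All 7 genes of the dynein tethers and regulatory complexes were higher at an unadjusted p under 0.05, all without overlap (0.45 to 1.19, median 0.81). *Cfap57*, an adaptor of inner dynein arms, had 10.7, 9.44 and 12.9 CPM in (+/−) cultures, against 3.84, 3.85 and 6.84 CPM in (+/+) cultures (1.19 ± 0.25; edgeR adjusted p = 0.166). The lowest (+/−) animal was 1.38 times the highest (+/+) animal. *Cfap44* and *Cfap43* encode partners in the tether of an inner dynein. *Cfap44* had 91.3, 61.5 and 78.0 CPM in (+/−) and 43.8, 33.6 and 60.1 CPM in (+/+) cultures (0.75 ± 0.22), and *Cfap43* had 61.8, 43.3 and 49.8 CPM in (+/−) and 36.9, 26.2 and 40.0 CPM in (+/+) cultures (0.59 ± 0.18). Both kept their groups apart by a narrow margin.

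*Cfap73* and *Cfap100* encode partners in the modifier of inner arms complex, and their differences were 0.95 ± 0.30 and 0.45 ± 0.18. *Cfap100* had 56.8, 36.6 and 40.2 CPM in (+/−) cultures, against 36.4, 27.7 and 34.0 CPM in (+/+) cultures (edgeR adjusted p = 0.209). Its animal 505 stood apart, and without 505 the log2 fold change was 0.23. *Cfap61*, of the calmodulin and spoke associated complex, and *Cfap206*, at the base of a radial spoke, stood at 0.82 and 0.81.

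The 2 dynein arm assembly factors of the family act in the cytoplasm, and their difference from the other groups was not tested. *Cfap298* had 44.2, 46.0 and 42.3 CPM in (+/−) cultures, against 34.4, 31.5 and 35.2 CPM in (+/+) cultures (0.39 ± 0.08; edgeR adjusted p = 0.166). *Cfap300* had 27.7, 23.3 and 25.6 CPM in (+/−) and 18.1, 16.2 and 21.2 CPM in (+/+) cultures (0.47 ± 0.12). Neither gene's groups overlapped, and in *Cfap298* the (+/−) animal 505 was not the highest.

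The 4 genes tied to the base of the cilium or to non-motile cilia ran from −0.03 to 1.02. *Cfap97*, a relative of Drosophila hemingway, had 25.6, 22.1 and 23.0 CPM in (+/−) cultures, against 22.5, 25.6 and 24.2 CPM in (+/+) cultures (−0.03 ± 0.10; edgeR adjusted p = 0.857). *Cfap410*, a protein of the ciliary base also known from photoreceptors, had 24.9, 25.3 and 27.2 CPM in (+/−) and 22.3, 22.0 and 25.6 CPM in (+/+) cultures (0.15 ± 0.10; edgeR adjusted p = 0.359). Both pairs of groups overlapped, and the sign for *Cfap97* turned under several of the alternatives tried. *Cfap36* had 85.7, 88.3 and 89.9 CPM in (+/−) and 60.7, 63.6 and 82.5 CPM in (+/+) cultures (0.35 ± 0.12), without overlap. *Cfap157*, a basal body protein of motile cilia that is needed for sperm flagella in mice, was far from these 3, at 1.02 ± 0.31.

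*Cfap58* and *Cfap299* were assigned to none of these places. *Cfap58* had 3.33, 3.16 and 4.42 CPM in (+/−) cultures, against 1.48, 1.47 and 2.22 CPM in (+/+) cultures (1.08 ± 0.24; edgeR adjusted p = 0.166). *Cfap299* had 10.9, 9.44 and 12.4 CPM in (+/−) and 6.09, 5.14 and 7.89 CPM in (+/+) cultures (0.78 ± 0.19). Both had non-overlapping groups.

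**Figure D3:**
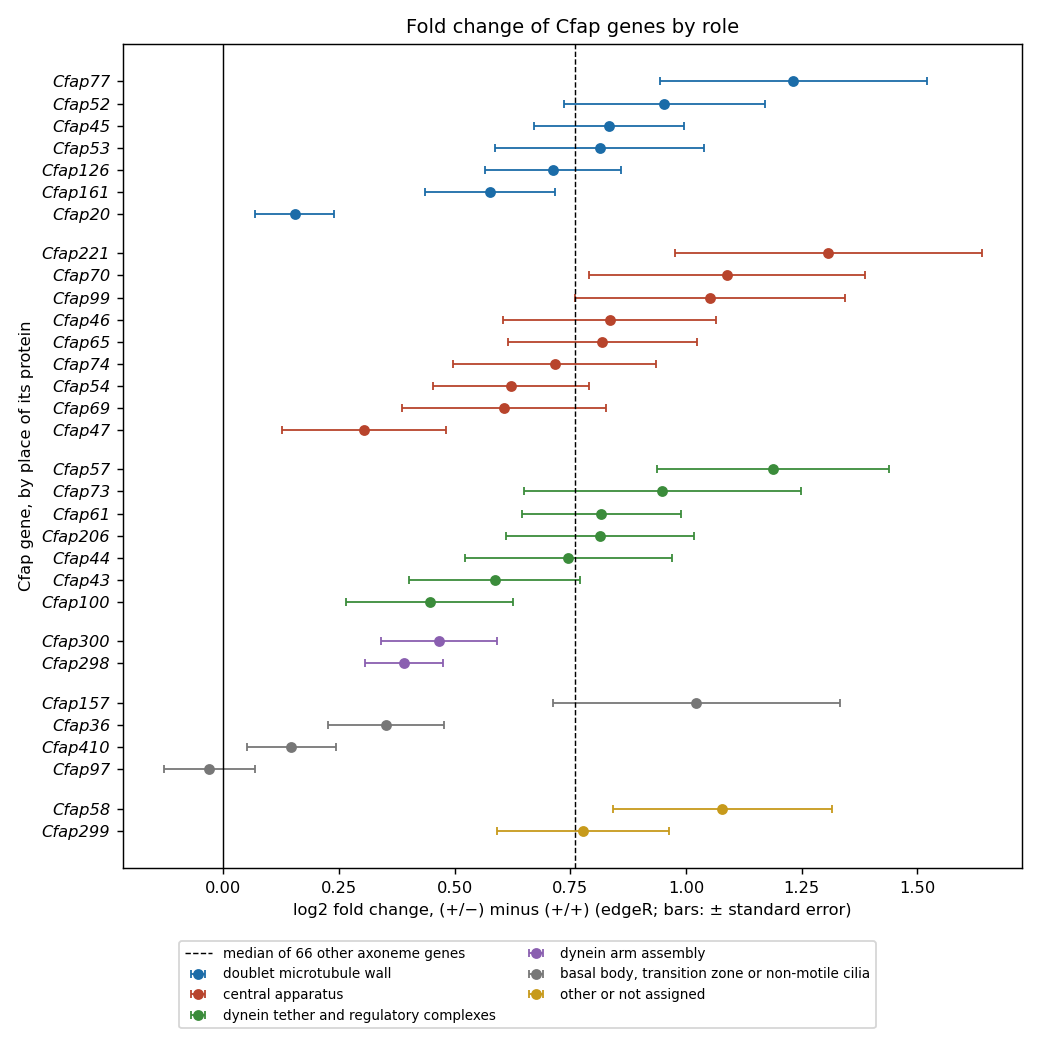
Log2 fold change, (+/−) minus (+/+), of the 31 Cfap genes from edgeR (x axis, bars ± SE, 3 animals each), grouped and coloured by the place of the protein, with a dashed line at the median of 66 other axoneme genes (0.76). The doublet, central apparatus and tether genes spread around the line, with group medians of 0.81, 0.82 and 0.81, while Cfap20, Cfap410 and Cfap97 lie near 0.

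The members varied together across animals. The order 505, 508, 506, 513, 510, 511 from high to low held in 13 members, and 511 was the lowest of all 6 animals in 27. Among (+/−) animals 505 was the highest in 21 members and 506 the lowest in 23. Among (+/+) animals 513 was the highest in 27. The spread within a genotype was thus shared by most members, so the 31 genes are not 31 separate observations of a difference between genotypes.

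Other genes of motile cilia were close to the *Cfap* genes. Of all genes tested, 13.2% were higher and 9.11% lower at an unadjusted p under 0.05. Of 66 tested genes of the motile axoneme outside the family, 59 were higher at an unadjusted p under 0.05 and none was lower, at a median of 0.76. Relative to the mean of that list in the same animal, the members differed by a median of 0.04 between genotypes, from 0.64 for *Cfap221* to −0.77 for *Cfap97*. The 9 dynein arm assembly factors tested outside the family were all higher at the same p (0.48 to 1.12, median 0.61). Of 16 multiciliation regulators 9 were higher at that p (median 0.41), among them *Foxj1*, with 647, 582 and 611 CPM in (+/−) cultures, against 401, 349 and 484 CPM in (+/+) cultures (0.58 ± 0.14, SE, n = 3 each; edgeR adjusted p = 0.166). *Foxj1* thus showed the same separation of animals as most members.

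Genes that primary cilia use too had smaller medians. Their counts stand beside the same shares of all genes, 13.2% higher and 9.11% lower. Of 29 intraflagellar transport genes, which build motile and primary cilia alike, 22 were higher and 2 lower at an unadjusted p under 0.05 (median 0.38). Of 26 genes of the BBSome and the primary cilium, 11 were higher and none lower (median 0.31). None of the genes on these lists passed an adjusted p of 0.1 with edgeR.

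Markers of cell types were read against the same shares of all genes (13.2% higher and 9.11% lower at an unadjusted p under 0.05), and none passed an adjusted p of 0.1 with edgeR. All 12 ependymal markers outside the family were higher at an unadjusted p under 0.05 (median 0.87). They summed to 1120 to 1350 CPM in (+/−) and 617 to 811 CPM in (+/+) cultures, and none was at 0 in all animals. Most of this sum came from *Pltp* (421.5 to 491.6 CPM in (+/−) and 270.7 to 340.3 in (+/+) cultures), *Tm4sf1* (225.1 to 292.8 and 122.6 to 172.3) and *Rarres2* (186.2 to 240.7 and 103 to 155.9). The ependymal markers were chosen together with those of motile cilia, so the list is not a readout apart from the axoneme genes. Of 12 choroid plexus markers tested, 7 were higher and 1 lower (median 1.15), at a summed 425 to 1590 CPM in (+/−) and 111 to 305 CPM in (+/+) cultures. *Ttr* was the largest part of this sum, with 1302, 631 and 303 CPM in (+/−) and 205, 82.9 and 47.1 CPM in (+/+) cultures. *Aqp1*, *Prlr* and *Sostdc1* overlapped between the groups, and in *Kl* and *Slc5a5* every (+/−) animal lay below every (+/+) animal. No choroid plexus marker was at 0 in all animals either. Of 9 pan-neuronal markers 3 (*Elavl4*, *Meg3* and *Snhg11*) were lower and none was higher (median −0.48). *Tubb3*, *Snap25*, *Syt1*, *Rbfox3*, *Map2* and *Stmn2* did not pass that threshold (edgeR unadjusted p of 0.0763 to 0.211). *Meg3* and *Snhg11* had the smallest p of the 9 (edgeR unadjusted p of 0.000968 and 0.000126). The list was chosen with earlier results of these data known, so this count is not independent of them. Of 6 astrocyte markers 1 was higher and none lower (median 0.27), and of 6 microglia markers 3 were higher and none lower (median 0.94). The parts that these markers' cell types have in the *Cfap* values were not tested.

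Set by animal, the lists did not all follow the same order. On a log2(CPM + 0.1) scale relative to the (+/+) mean, the *Cfap* genes averaged 0.88, 0.58 and 0.75 in (+/−) animals, against −0.09, −0.28 and 0.37 in (+/+) animals. The other axoneme genes averaged 0.86, 0.57 and 0.80 in (+/−) and −0.09, −0.27 and 0.36 in (+/+) animals, nearly the values of the *Cfap* genes. The choroid plexus markers averaged 1.73, 0.93 and 0.81 in (+/−) and 0.33, 0.09 and −0.42 in (+/+) animals, so 513 was the lowest there although it was the highest (+/+) animal for *Cfap* genes. The neuronal markers averaged −0.94, −0.36 and −0.26 in (+/−) and 0.02, 0.08 and −0.09 in (+/+) animals, with 505 apart from all others. Astrocyte markers, at 0.53, 0.38 and 0.25 in (+/−) and −0.11, −0.22 and 0.33 in (+/+) animals, overlapped between the groups. Microglia markers averaged 1.5, 0.53 and 0.52 in (+/−) and −0.11, 0.21 and −0.11 in (+/+) animals, again with 505 highest. Genes of spermatids, another known site of *Cfap* expression, summed to at most 0.164 CPM in any animal, and 2 of 6 were at 0 in all.

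**Figure D4:**
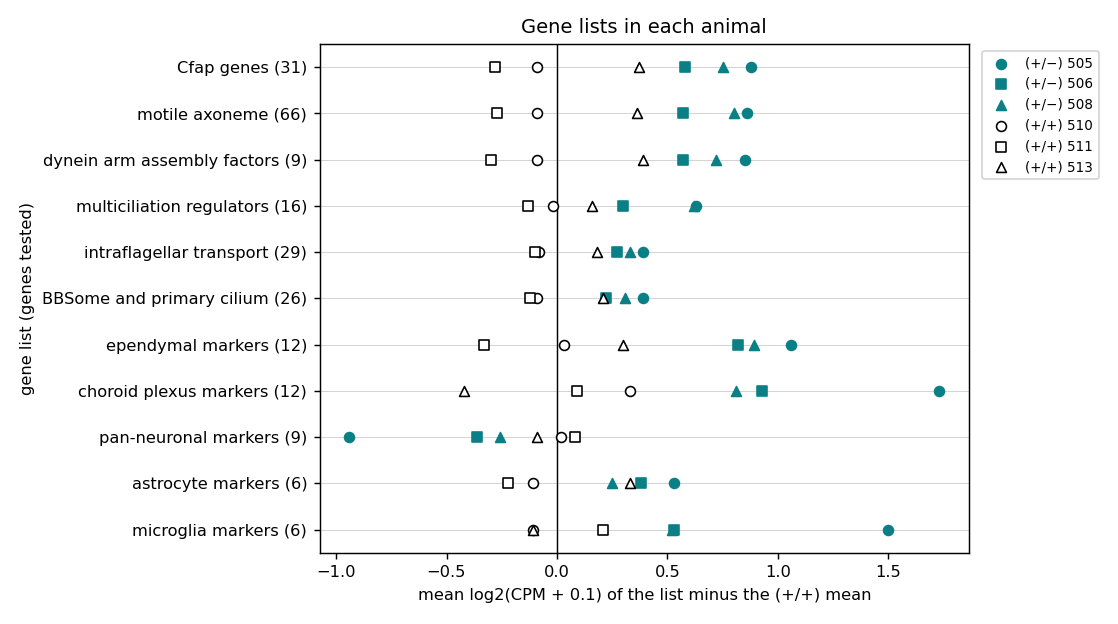
Mean log2(CPM + 0.1) of each gene list in each animal relative to the (+/+) mean (x axis), with filled teal symbols for (+/−) and open symbols for (+/+) animals and the number of genes tested in brackets. Cfap genes and other axoneme genes show nearly the same positions in all 6 animals, while 513 is the highest (+/+) animal for Cfap genes (0.37) and the lowest of all for choroid plexus markers (−0.42).

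Some members lie over other genes. Of the 31 members 18 overlap another annotated gene, and 7 overlap a gene with 0.1 times their own counts or more. The libraries were strand-marked, but no source used here says whether reads were counted by strand, so values of these 7 (*Cfap43*, *Cfap61*, *Cfap73*, *Cfap97*, *Cfap100*, *Cfap157* and *Cfap299*) are less certain. At *Cfap43* strand would not separate all reads, because *Itprip* overlaps it on the same strand. *Itprip* had 0.301 times the counts of *Cfap43* and a log2 fold change of 0.26, against 0.59 for *Cfap43*. The widest gap was at *Cfap73*, whose opposite-strand neighbour *Ddx54* had 7.23 times its counts and a log2 fold change of −0.26, against 0.95 for *Cfap73*. *Crnkl1*, opposite to *Cfap61*, had 1.25 times its counts and a log2 fold change of 0.44, against 0.82 for *Cfap61*.

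Whether members passed the adjusted threshold depended on the fit and on 1 animal. DESeq2 on the same 6 animals called 25 of 31 members higher in (+/−) cultures, where it called 7.42% of all genes higher. Without the (+/+) animal 513 edgeR called 26 members, against 12.3% of all genes, and the median of the members was 0.96. With no low-count filter edgeR called 25 members, against 3.16% of 32322 genes. That larger total includes genes with few counts, so this share is not on the same footing as the others. The same 25 members were called in all of these fits. *Cfap20*, *Cfap47*, *Cfap97*, *Cfap100* and *Cfap410* were called in none of them, and *Cfap36* only without 513.

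The only animal with high *Xist* counts, 511, is (+/+), so genetic sex is not balanced between the genotypes. The paper's methods name genetic sex as a covariate for its bulk mouse data. DESeq2 with this covariate, which sets 511 apart from the other animals, called 7 members, against 1.44% of all genes. They were *Cfap45*, *Cfap52*, *Cfap57*, *Cfap61*, *Cfap77*, *Cfap126* and *Cfap221*. With genetic sex in edgeR the smallest adjusted p of a member was 0.49. The median log2 fold change of the members was then 0.635, against 0.778 without the covariate. With the 12 libraries as separate samples edgeR called 30 members, against 25.6% of all genes, and 30 with the library number as a block, against 24.1%, but both libraries of an animal are not independent replicates. Leaving out any of the other 5 animals in turn gave 0 calls, and the median of the members was lowest without the (+/−) animal 505, at 0.63.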

How the data were processed

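Raw counts for each gene in each library were deposited by the authors, who aligned reads of dUTP (strand-marked) libraries to mm10 with STAR; the counting tool is not named in any source used here. Their deposited normalised signal (animal counts divided by DESeq2 size factors) was used here only to check that each animal's values are the raw counts times 1 constant. A table of the authors' own fold changes and p-values was not used.

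An animal's 2 libraries were added up (3 (+/−) and 3 (+/+) animals; libraries held 20181477 to 26594444 counts). Over members, chi-square per degree of freedom between an animal's libraries was 0.766 to 1.95. All 55397 genes entered edgeR 4.0.16 in R 4.3.3: filterByExpr by genotype (18264 genes left), TMM, quasi-likelihood test, Benjamini-Hochberg adjustment, threshold 0.1. CPM used TMM-scaled totals; SE is the log2 fold change over the root of F. p-values set the difference between genotypes against the spread between these animals. DESeq2 1.42.0, limma 3.58.1 (voom), other scalings, filters and covariates, single libraries and each animal left out were tried too. Scripts were tested on simulated data. Not every overlapping gene is reported here.

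Every *Cfap* gene is named; values per animal are given for the 3 most abundant per place and the 3 largest and smallest differences, with *Cfap45* and other single values added after they were seen. Members, roles and gene lists were chosen with earlier results of these data known.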

Additional observations from a re-analysis of the deposited data

How the results depend on the processing

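No member was called lower in (+/−) cultures under any alternative, and the member median stayed positive (0.63 to 0.96 with each animal left out). The count of members called higher was 0 with edgeR, with DESeq2 size factors, limma voom, the newer edgeR method, a mean CPM of 1, genetic sex in edgeR, stricter level limits on members and either library alone. It was 25 with DESeq2, 25 with no low-count filter, 7 with DESeq2 and genetic sex, and 0 to 26 with each animal left out, where 26 is without the (+/+) animal 513. The causes of these differences were not tested. Members at an unadjusted p under 0.05 numbered 24 to 26 with each animal left out. The share of all genes under that p was not worked out for these fits, so this count has no background. The log2 fold change of *Cfap97* turned positive with genetic sex in edgeR (0.016) and in DESeq2 (0.007) and with library 1 alone (0.049), and ran from −0.094 to 0.015 with each animal left out.

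Treating the 12 libraries as samples gave 30 called members without a block and 30 with the library number as replicate block. Library numbers do not pair the animals: deviations of libraries numbered 1 correlated by −0.0256 to 0.0366 over 15 pairs of animals. With 3 animals per genotype, exact tests of single members cannot pass 0.05.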
